A study of Mus musculus with 16 samples.

Results

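The genes described here were those of the proteasome, taken as every gene on the array whose symbol begins with Psm, continues with 1 letter from a to g and then a digit. The pattern picked 44 of the 18138 genes measured. Of these, 17 belonged to the 20S core particle (Psma and Psmb), 20 to the 19S regulatory particle by name (Psmc and Psmd), and 7 were activators, an inhibitor or assembly factors (Psme, Psmf and Psmg). Psmc3ip matched the pattern only through its name. It encodes a protein of homologous recombination and no proteasome subunit, and it was kept in the counts, shares and medians given for members and for 19S-named genes. RNA came from D10 T cells, a fast-growing variant of a mouse Th2 clone, so that every array sampled 1 cell line grown in the presence of IL-2. Control cells, and cells that had been preincubated for 1 h with 10 µM Akti1/2, an allosteric inhibitor of the kinases Akt1 and Akt2, were harvested unstimulated (0 h) or after 2, 6 or 12 h of stimulation through CD3 and CD28. The methods call the control cells untreated, while the study's results section names solvent. Each of the 8 groups had 2 arrays, 1 on each of 2 Illumina chips of 8 arrays, and the question was which responses to stimulation changed when Akt was inhibited.

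The 20S core is a barrel of stacked rings, in which the alpha subunits form the gated outer rings and the beta subunits the inner rings that hold the proteolytic sites. The 19S particle caps the barrel, binds ubiquitinated proteins, removes the ubiquitin and feeds the unfolded chain inward with its ring of ATPases. In lymphocytes and under interferon, Psmb8, Psmb9 and Psmb10 can replace the catalytic subunits Psmb5, Psmb6 and Psmb7, giving the immunoproteasome, which favours peptides suited to MHC class I.

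Values are normalised probe intensities on the log2 scale, and a difference of 1 on that scale is a doubling. A gene was tested when its intensity was above the negative-control beads (detection p under 0.01) on at least 2 arrays, which 7395 genes and 40 of the 44 members were, and it was called when limma's moderated test gave a Benjamini-Hochberg adjusted p under 0.05 over all 7395 genes. Of the members, 38 were above background on all 16 arrays. Psmd9 was above background on 4 arrays and Psmd6 on 3. The probes of Psma1, Psma3, Psma6 and Psmc6 passed that detection threshold on no array, so that these constitutive subunits were not well above background in any group and were not tested. Psmg1 and Psmg4 were not analysed here. Between the 2 arrays of a group, members differed by a median of 0.07 (control, 12 h, and Akti1/2, 2 h) to 0.17 (Akti1/2, 6 h) on the log2 scale. Nothing in the labels says that the 2 arrays of a group came from separate cultures, so p-values measure the spread between these arrays, which may be technical.

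For the members that led the comparisons, RefSeq promoter windows of the mouse build GRCm38.p6, from 250 bases before to 50 bases after the gene's start, were taken from a table of 32851 promoters in which 38 of the 44 members were found (41 windows). Psmb1, Psmb2, Psmb7, Psmc3, Psmd7 and Psmg2 had no entry. The 6 windows below, 5′ to 3′ on the gene's own strand, belong to the immune subunits Psmb8 and Psmb10, the 19S lid gene Psmd12 and the assembly factor Psmg3, all of which were lower with Akti1/2 at 12 h, and to Psmd1 and Psme3, which were higher with Akti1/2 at 2 h and lower at 12 h. Capitals mark matches, on either strand, to a set of 8 motifs. The ETS motif was searched as CCGGAAG, and the antioxidant response element as TGACNNNGC. Matches to the gamma-activated motif follow the letters TTCNNNGAA, and those to the FOXO motif of forkhead factors the letters GTAAACA. For the E-box the canonical palindrome CACGTG was used, and the CCAAT box is given by its name. The interferon-stimulated response element and the NF-kB site were searched by their consensus.
Psmb8 (chr17:34197945-34198244, plus strand): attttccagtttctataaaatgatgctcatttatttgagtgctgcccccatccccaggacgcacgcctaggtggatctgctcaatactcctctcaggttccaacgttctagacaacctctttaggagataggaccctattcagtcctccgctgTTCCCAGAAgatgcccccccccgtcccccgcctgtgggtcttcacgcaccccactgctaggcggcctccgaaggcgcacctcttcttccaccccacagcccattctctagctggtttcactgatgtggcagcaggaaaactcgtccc
Psmb10 (chr8:105938343-105938642, minus strand): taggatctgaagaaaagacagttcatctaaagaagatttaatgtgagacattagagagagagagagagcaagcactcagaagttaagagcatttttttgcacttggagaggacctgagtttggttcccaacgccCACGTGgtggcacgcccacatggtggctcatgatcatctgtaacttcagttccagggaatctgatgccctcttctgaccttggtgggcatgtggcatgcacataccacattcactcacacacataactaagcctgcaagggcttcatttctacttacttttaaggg
Psmd12 (chr11:107479278-107479577, plus strand): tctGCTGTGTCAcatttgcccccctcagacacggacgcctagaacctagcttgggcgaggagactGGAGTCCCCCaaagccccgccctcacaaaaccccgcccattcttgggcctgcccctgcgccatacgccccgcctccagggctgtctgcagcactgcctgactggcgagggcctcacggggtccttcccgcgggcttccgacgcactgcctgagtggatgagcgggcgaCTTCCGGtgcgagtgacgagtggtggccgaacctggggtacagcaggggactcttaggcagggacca
Psmg3 (chr5:139826845-139827144, minus strand): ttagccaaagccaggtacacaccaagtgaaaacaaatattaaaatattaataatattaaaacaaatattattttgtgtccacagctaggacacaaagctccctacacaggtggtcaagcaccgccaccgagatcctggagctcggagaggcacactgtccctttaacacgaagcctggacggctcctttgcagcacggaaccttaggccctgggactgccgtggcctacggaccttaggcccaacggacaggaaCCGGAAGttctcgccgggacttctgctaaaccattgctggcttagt
Psmd1 (chr1:86064369-86064668, plus strand): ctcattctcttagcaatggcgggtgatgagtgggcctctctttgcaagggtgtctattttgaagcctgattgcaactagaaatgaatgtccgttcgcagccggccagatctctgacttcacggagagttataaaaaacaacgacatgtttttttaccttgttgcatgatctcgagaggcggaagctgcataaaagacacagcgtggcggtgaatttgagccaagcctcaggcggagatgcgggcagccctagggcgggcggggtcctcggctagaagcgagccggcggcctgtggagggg
Psme3 (chr11:101315963-101316262, plus strand): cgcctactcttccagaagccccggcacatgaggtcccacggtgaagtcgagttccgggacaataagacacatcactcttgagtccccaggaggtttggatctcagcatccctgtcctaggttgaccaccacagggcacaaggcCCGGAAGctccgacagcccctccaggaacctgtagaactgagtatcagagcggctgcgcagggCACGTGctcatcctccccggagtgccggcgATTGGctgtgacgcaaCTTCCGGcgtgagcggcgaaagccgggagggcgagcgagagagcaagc
The Psmb8 window held 1 gamma-activated match, the Psmb10 window 1 E-box, and the Psmg3 window 1 ETS match just past the start. The Psmd12 window held 1 match each to the antioxidant, NF-kB and ETS motifs, and the Psme3 window held 2 ETS matches, an E-box and a CCAAT box read on the other strand. The Psmd1 window held no match to these letters, and no 2 matches overlapped in any of the 6 windows. Over all members, the ETS letters were in 15 of 41 windows (36.6%), against 8.86% of all 32851. The antioxidant letters were in 6 windows (14.6%, against 12.4% of all), the E-box in 4 (9.76% against 7.15%), the CCAAT box in 14 (34.1% against 37.4%), the interferon element in 4 (9.76% against 3.44%), the gamma-activated letters in 2 (4.88% against 8.3%), the NF-kB consensus in 6 (14.6% against 8.46%) and the FOXO letters in none (3.65% of all). Of the 19 members lower at 12 h that had a window, 7 held the ETS letters, as did 5 of the 15 other tested members with one. These shares describe letters in a window and were not tested.

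Before stimulation, no proteasome gene was called between cells with and without Akti1/2. None of the 40 tested members was called between the groups at 0 h in limma's test, where 0.0541% of all genes were (0.0406% higher, 0.0135% lower), and none was called under any alternative setting. At an unadjusted p under 0.05 there were 2 members (5% of those tested, against 5.18% of all genes). Differences at 0 h ran from -0.25 (Psme3) to 0.41 (Psmd14), with a median of 0.06 over members and -0.002 over all genes.

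After 12 h of stimulation, proteasome genes were lower with Akti1/2 in every class of subunit. Of the 40 members tested, 23 were lower and 1, Psmd10, was higher than in control cells, where 24.8% of all genes were lower and 24.2% higher, 49% in all. The median difference was -0.42 over members and -0.02 over all genes tested. All 4 measured alpha subunits (Psma2, Psma4, Psma5 and Psma7) were lower, as were 4 of 7 constitutive beta subunits (Psmb2, Psmb3, Psmb4 and Psmb7), 2 of 3 immune subunits, 9 of 19 genes with a 19S name, Psmc3ip among them, and 4 of 7 activator and assembly genes. On chip 1, 31 of the 40 differences were below 0, on chip 2, 36 were, and 31 were below 0 on both. The 4 members not well above background are in none of these counts. In these bulk samples, fewer cells that express a gene and less RNA per cell cannot be told apart.

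Of the 24 calls at 12 h, 15 held in all 11 alternative settings run for them, of which 7 changed the normalisation, filter or model and 4 left out 1 array. Leaving out control replicate 1 removed the calls of Psma4, Psmb4, Psmd10, Psme2 and Psmg2, and leaving out control replicate 2 those of Psma5, Psmb4, Psmc5, Psmd13 and Psmg2. Leaving out Akti1/2 replicate 1 removed the calls of Psma5, Psmb4, Psmc5 and Psmg2, and replicate 2 those of Psmb3, Psmb4, Psmd10 and Psmd13. Across all settings the highest adjusted p of these 9 genes ran from 0.0504 (Psme2) to 0.21 (Psmc5), and 19 or 20 members were called when 1 array was left out.

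Some markers of other cell types moved with the same groups. Of 2 erythroid markers, the beta globin Hbb-b1 was at background on every array, while Hba-a1, an alpha globin, was above it on all 16, and their summed intensity at 12 h was 393.5 to 401 with Akti1/2 and 804.1 to 946.5 in control cells. Hba-a1 itself read 251.7 and 263.7 with Akti1/2 and 663.6 and 791.7 in control cells, against 1490.3 to 1944.9 in the 4 arrays at 0 h. Of 8 myeloid probes, Cd68 alone was above background, at 314.4 and 250.5 with Akti1/2 and 172.8 and 185.1 in control cells at 12 h, and the sum of the list was 1120.4 to 1218.1 against 1099 to 1120.6. Markers of CD8 T cells, dendritic cells and fibroblasts were at background on all arrays, and of 4 B cell markers Ms4a1 exceeded it on 1 array. All 8 Th2 markers were detected, Cd4 on 13 arrays and the other 7 on all 16, and their sum at 12 h was 25021 to 33058 with Akti1/2 and 37279 to 41575 in control cells. At 0 h that sum was 24935 to 32138 with Akti1/2 and 25652 to 31192 in control cells. The list includes the cytokine genes Il4 and Il5, whose intensities ran from 991.7 to 5929.3 and from 203.9 to 10177.3 over the 16 arrays. The part of these markers in the proteasome result was not tested.

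**Figure D1:**
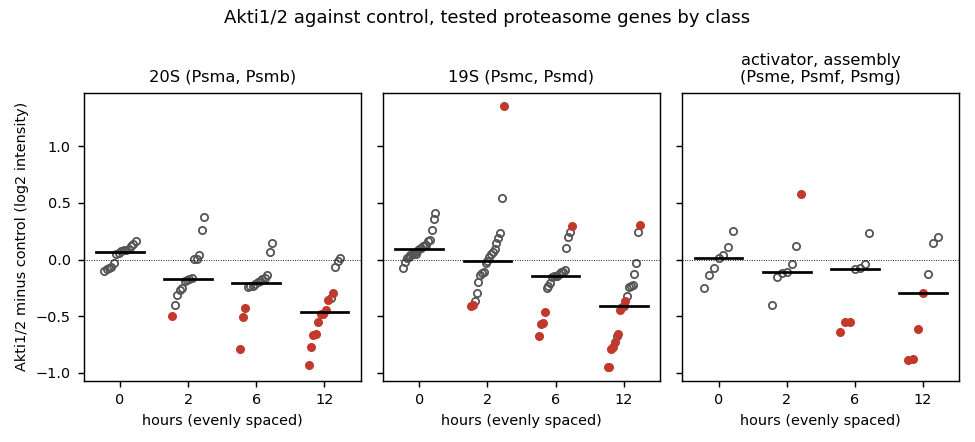
Difference between Akti1/2 and control (log2 intensity, vertical axis) at 0, 2, 6 and 12 h of stimulation for the tested 20S (14 genes), 19S (19 genes, Psmc3ip included) and activator or assembly genes (7 genes). Each point is 1 gene, filled where called (limma, adjusted p under 0.05), the black bar is the median of the class, and no point is filled at 0 h while most lie below 0 at 12 h.

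Among the immune subunits, Psmb8 and Psmb10 were lower with Akti1/2 and Psmb9, whose probe was dim, was not called in any comparison. Psmb8 encodes the inducible counterpart of Psmb5. In control cells it read 9.72 and 9.74 unstimulated, 9.47 and 9.78 after 2 h, 9.44 and 9.25 after 6 h, and 9.82 and 9.91 after 12 h. With the inhibitor the values were 9.73 and 9.89 unstimulated, 9.09 and 9.36 after 2 h, 9.06 and 8.61 after 6 h, and 8.97 and 8.90 after 12 h. The arrays with Akti1/2 lay below the control arrays at 2, 6 and 12 h without overlap, and overlapped them at 0 h. The difference of Psmb8 from control cells at 2 h was not called. At 12 h the intensity of Psmb8 was 0.524 times that of control cells (difference -0.93 ± 0.16, SE, n = 2 arrays per group, limma adjusted p = 0.000419). With Akti1/2 it had fallen from its own 0 h level by 0.58 at 2 h, by 0.97 at 6 h and by 0.88 at 12 h (limma adjusted p = 0.013, 0.000584 and 0.000801). The 2 h fall was not called without Akti1/2 replicate 2 at 0 h or replicate 1 at 2 h (highest adjusted p 0.0937), and the difference from control at 6 h (-0.51, adjusted p = 0.0249) was not called without control replicate 1 or Akti1/2 replicate 2 at 6 h (highest adjusted p 0.21). That 6 h difference was also not called in a fit of the 6 h groups alone.

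Psmb10, the inducible counterpart of Psmb7, rose late in control cells and fell early with Akti1/2. Its control values were 10.07 and 10.10 unstimulated, 10.04 and 10.12 after 2 h, 10.23 and 10.27 after 6 h, and 10.89 and 10.83 after 12 h. In the presence of Akti1/2 they were 10.16 and 10.12 unstimulated, 9.59 and 9.57 after 2 h, 9.53 and 9.39 after 6 h, and 9.91 and 10.28 after 12 h. The Akti1/2 arrays lay just above the control arrays at 0 h and below them at 2, 6 and 12 h, with no overlap, and the 2 arrays at 12 h with Akti1/2 lay further apart than those of any other group. In control cells the rise by 12 h was 0.78 ± 0.12 (SE, limma adjusted p = 0.000477). Against control cells, Psmb10 with Akti1/2 differed by -0.50 ± 0.12 at 2 h, by -0.79 ± 0.12 at 6 h and by -0.77 ± 0.12 at 12 h (limma adjusted p = 0.00881, 0.000271 and 0.000195). The difference at 2 h was not called without control replicate 2 at 2 h (adjusted p = 0.0531). From 6 to 12 h Psmb10 rose in both conditions, by 0.61 in control cells and by 0.63 with Akti1/2 (limma adjusted p = 0.00581 and 0.00352). The rise in control cells was not called without control replicate 1 at 12 h (adjusted p = 0.0507), and that with Akti1/2 was not called in a fit of its groups alone (adjusted p = 0.0963).

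Psmb9, the inducible counterpart of Psmb6, lies beside the peptide transporter gene Tap1 on chromosome 17, which is followed by Psmb8 and Tap2 in the RefSeq gene order of GRCm38.p6. At 12 h it read 6.40 and 6.28 on the control arrays, and 6.40 and 6.14 on those with Akti1/2, and the groups overlapped. Its spread was wide in control cells at 2 h, where it read 6.53 and 7.22, and differences between conditions ran from -0.31 at 2 h to 0.14 at 6 h. Before normalisation its probe read 169.1 to 257.3, where the negative-control means of the arrays were 111.1 to 138.6. The medians of Psmb8 and Psmb10 were 895.8 and 1223.2. The lack of a call therefore does not show that Psmb9 was unchanged.

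Of the constitutive catalytic subunits, Psmb7 alone was called against control cells. Psmb7, the trypsin-like subunit, was lower with Akti1/2 at 12 h, where it read 11.93 and 11.96 against 12.39 and 12.46 in control cells (difference -0.48 ± 0.09, SE, limma adjusted p = 0.00105). Psmb5, the chymotrypsin-like subunit, rose with Akti1/2 from 9.13 and 9.22 at 0 h to 9.72 on both arrays at 2 h, and read 8.78 and 8.56 at 12 h. Both changes from 0 h were called (0.54 and -0.51, limma adjusted p = 0.0134 and 0.0151), while the differences from control cells were not at any time. The rise was not called without Akti1/2 replicate 1 at 0 h or replicate 2 at 2 h (highest adjusted p 0.0741), nor the fall without replicate 2 at 0 h or at 12 h (highest adjusted p 0.114). Psmb6, the caspase-like subunit, was called in no comparison and read 12.22 and 12.19 on the control arrays, and 12.21 and 12.19 on those with Akti1/2, at 12 h.

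**Figure D2:**
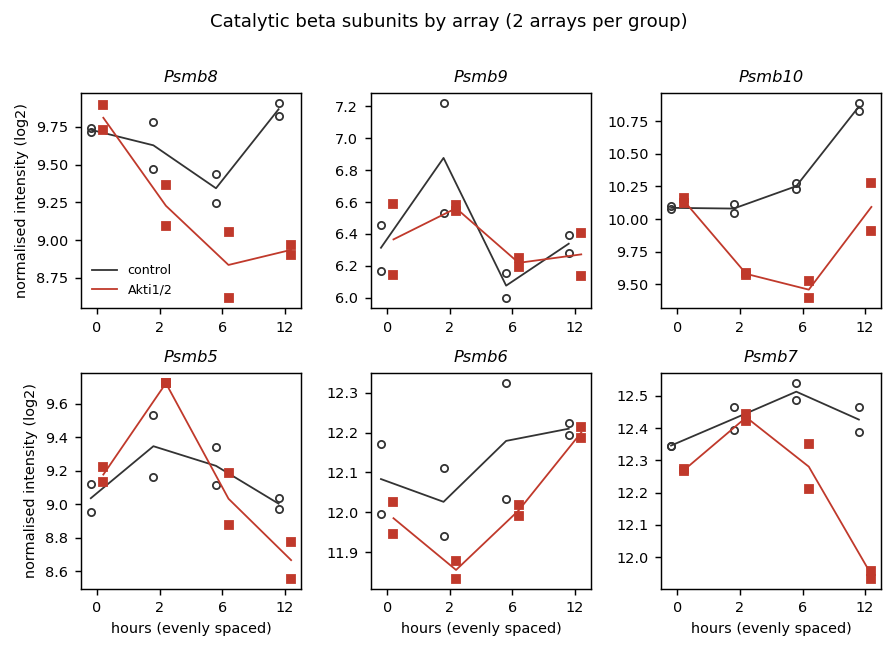
Normalised intensity (log2, vertical axis) of the 3 immune subunits Psmb8, Psmb9 and Psmb10 and of the constitutive catalytic subunits Psmb5, Psmb6 and Psmb7 by hours of stimulation (times evenly spaced), with each panel on its own scale. Open circles are control arrays, filled squares Akti1/2 arrays and lines join the means of 2 arrays; for Psmb8 and Psmb10 the Akti1/2 arrays lie below the control arrays from 2 h on, while for Psmb6 and Psmb9 they overlap at 12 h.

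Of the remaining core subunits, Psma2 and Psmb2 showed the largest differences at 12 h, -0.67 and -0.66 (SE 0.12 and 0.11, limma adjusted p = 0.00082 and 0.000318). Psmb2 read 11.91 and 11.79 on the control arrays, and 11.19 and 11.20 on those with Akti1/2, at 12 h. Psma7, Psma4, Psmb3, Psma5 and Psmb4 differed by -0.55 to -0.30 and were called as well. The one measured core subunit outside the catalytic set that was not called was Psmb1, with a difference of 0.02 at 12 h. In control cells no alpha or constitutive beta subunit was called against 0 h at any time, the differences lying between -0.18 and 0.31. With Akti1/2, Psma2, Psma4, Psma7, Psmb2, Psmb3, Psmb5 and Psmb7 had fallen below their 0 h level by 12 h, by 0.32 to 0.64.

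Among the 19S genes, the lid subunits Psmd12 and Psmd7 showed the largest differences of all members at 12 h. For Psmd12, control arrays read 10.26 and 10.13 unstimulated, 10.25 and 10.13 after 2 h, 10.22 and 10.29 after 6 h, and 10.30 and 10.42 after 12 h. The arrays with Akti1/2 gave 10.37 and 10.22 unstimulated, 10.08 and 10.24 after 2 h, 9.78 and 9.37 after 6 h, and 9.32 and 9.50 after 12 h. The conditions overlapped until 2 h and were separate at 6 and 12 h, where Psmd12 was at 0.624 and 0.516 times the control intensity (limma adjusted p = 0.00242 and 0.000133). Psmd7, which pairs with the deubiquitinase Psmd14 in the lid, read 11.46 and 11.53 on the control arrays, and 10.48 and 10.61 on those with Akti1/2, at 12 h (difference -0.95 ± 0.11, SE, limma adjusted p = 2.38e-05). It had risen by 0.41 in control cells and fallen by 0.57 with Akti1/2 from 0 h to 12 h. The rise in control cells (adjusted p = 0.0164) was not called without control replicate 1 at 0 h, nor without either control array at 12 h (highest adjusted p 0.117).

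Psmd1, a scaffold subunit of the base, had the largest early change of the members. In control cells it read 8.44 and 8.36 unstimulated, 8.62 and 8.60 after 2 h, 8.67 and 8.40 after 6 h, and 8.37 and 8.72 after 12 h. With the inhibitor the values were 8.51 and 8.40 unstimulated, 9.95 and 9.98 after 2 h, 7.96 and 8.60 after 6 h, and 7.86 and 7.69 after 12 h. Both Akti1/2 arrays lay above every control array at 2 h and below every control array at 12 h, and at 6 h the 2 Akti1/2 arrays differed by more than any other pair. At 2 h the normalised intensity was 2.56 times that of control cells (difference 1.36 ± 0.18, SE, limma adjusted p = 0.000372) and at 12 h 0.587 times (difference -0.77 ± 0.18, adjusted p = 0.0042). Before normalisation, the mean Psmd1 intensity at 2 h was 862.1 with Akti1/2 and 518.4 in control cells. The fall from 0 h to 12 h with Akti1/2 (-0.68, adjusted p = 0.0101) was not called without Akti1/2 replicate 1 at 0 h or replicate 2 at 12 h (highest adjusted p 0.0698).

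Psmd14, the deubiquitinase of the lid, rose early in both conditions. Control arrays went from 8.45 and 8.93 unstimulated to 9.45 and 9.71 after 2 h, and Akti1/2 arrays from 9.17 and 9.04 to 10.10 and 10.14. The 0 h and 2 h arrays did not overlap within either condition. The rises were 0.89 ± 0.22 and 1.02 ± 0.22 (SE, limma adjusted p = 0.0255 and 0.00363), and the difference between the 2 rises was not called. Before normalisation, the mean Psmd14 intensity went from 563.9 to 902.6 in control cells and from 645.4 to 943.1 with Akti1/2. The rise in control cells was not called without control replicate 1 at 0 h, without control replicate 2 at 2 h, or in a fit of its groups alone (highest adjusted p 0.2). Psmd11, another lid subunit, rose by 0.40 in control cells and by 0.62 with Akti1/2 at 2 h, and the control rise was not called when any 1 of its 4 arrays was left out (highest adjusted p over all settings 0.268).

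In the base, the ATPase Psmc1 was lower with Akti1/2 at 6 h (-0.46) and 12 h (-0.73 ± 0.12, SE, limma adjusted p = 0.000228), reading 9.48 and 9.60 at 12 h against 10.33 and 10.20 in control cells. Without control replicate 2 at 6 h or in a fit of the 6 h groups alone, the difference at 6 h was not called (highest adjusted p 0.0674). The ATPase Psmc5 was lower at 12 h by 0.41, with -0.65 on chip 1 and -0.18 on chip 2. Psmc4 was lower at 2 h alone (-0.40, adjusted p = 0.0319), a call that was lost when any 1 of its 4 arrays was left out (highest adjusted p over all settings 0.156), and Psmc2 and Psmc3 were not called against control cells at any time. Of the base assembly chaperones, Psmd5 was lower at 2, 6 and 12 h, Psmd10 was higher at 6 and 12 h, and Psmd9 was near background and not called.

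Psmd5 read 8.77 and 8.74 on the control arrays, and 7.96 and 7.97 on those with Akti1/2, at 12 h, a difference of -0.79 ± 0.11 (SE, limma adjusted p = 8.02e-05). It differed by -0.41 at 2 h and -0.56 at 6 h, and the 2 h difference (adjusted p = 0.0158) was not called without either control array at 2 h or without Akti1/2 replicate 2 (highest adjusted p 0.0791). A fit of the 2 h groups alone did not call that 2 h difference either. Psmd10, also known as gankyrin, read 9.89 and 10.02 on the control arrays, and 10.22 and 10.29 on those with Akti1/2, at 12 h (difference 0.31 ± 0.09, SE, limma adjusted p = 0.0169), and 0.29 higher at 6 h (adjusted p = 0.0272). Its Akti1/2 arrays lay above the control arrays at every time, 0 h included, and neither call held in every setting. The 6 h call was lost when any 1 of its 4 arrays was left out or when its groups were fitted alone, and the 12 h call without control replicate 1 or Akti1/2 replicate 2, with arrays scaled to the same mean, and in a fit of the 12 h groups alone (highest adjusted p 0.173 and 0.128).

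Of the 4 activator genes, Psme2 and Psme3 were called between conditions. Psme3, the nuclear activator PA28 gamma, read 10.29 and 10.52 in unstimulated control cells, 10.26 and 10.51 after 2 h, 10.69 and 10.91 after 6 h, and 10.64 and 10.79 after 12 h. In the presence of Akti1/2 it read 10.07 and 10.23 unstimulated, 10.85 and 11.07 after 2 h, 10.09 and 10.41 after 6 h, and 9.78 and 9.88 after 12 h. The Akti1/2 arrays lay below the control arrays at 0 h, above them at 2 h and below them at 6 and 12 h, with no overlap. The differences were 0.58, -0.55 and -0.89 (SE 0.15 each, limma adjusted p = 0.0143, 0.0123 and 0.000389). Before normalisation, the mean Psme3 intensity at 2 h was 1643.4 with Akti1/2 and 1516.1 in control cells. The 2 h call was lost without control replicate 1 or Akti1/2 replicate 2 at that time and the 6 h call without control replicate 2 or Akti1/2 replicate 1 (highest adjusted p 0.11 and 0.103). Both Psme3 calls were also lost in a fit of the groups compared alone. Psme2, 1 of the 2 subunits of the interferon-inducible activator PA28, which has a near-identical copy (Psme2b) that a probe may not separate, was lower at 6 h by 0.64 and at 12 h by 0.61 (limma adjusted p = 0.00422 and 0.0039), reading 10.03 and 9.74 on the control arrays, and 9.22 and 9.33 on those with Akti1/2, at 12 h. Without control replicate 1 at 12 h its adjusted p there was 0.0504. Psme1, which forms that activator with Psme2, read 11.84 and 11.86 on the control arrays, and 11.67 and 11.78 on those with Akti1/2, at 12 h and was not called between conditions. Psme4, the activator PA200, and Psmf1, the inhibitor PI31, were not called between conditions either, with differences of 0.20 and 0.15 at 12 h.

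Psmg3, which assists assembly of the alpha ring, rose with stimulation in control cells but not with Akti1/2. Its control values were 9.37 and 9.52 unstimulated, 9.63 on both arrays after 2 h, 9.92 and 10.04 after 6 h, and 10.29 and 10.40 after 12 h. The arrays with Akti1/2 gave 9.76 and 9.63 unstimulated, 9.78 and 9.71 after 2 h, 9.54 and 9.32 after 6 h, and 9.45 and 9.49 after 12 h. The Akti1/2 arrays lay above the control arrays at 0 and 2 h and below them at 6 and 12 h. The control rise was 0.91 ± 0.11 by 12 h and the difference between conditions then was -0.88 ± 0.11 (SE, limma adjusted p = 9e-05 and 4.36e-05). Psmg2, another assembly factor, was lower at 12 h by 0.30 (adjusted p = 0.0306), one of the calls lost without single arrays.

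**Figure D3:**
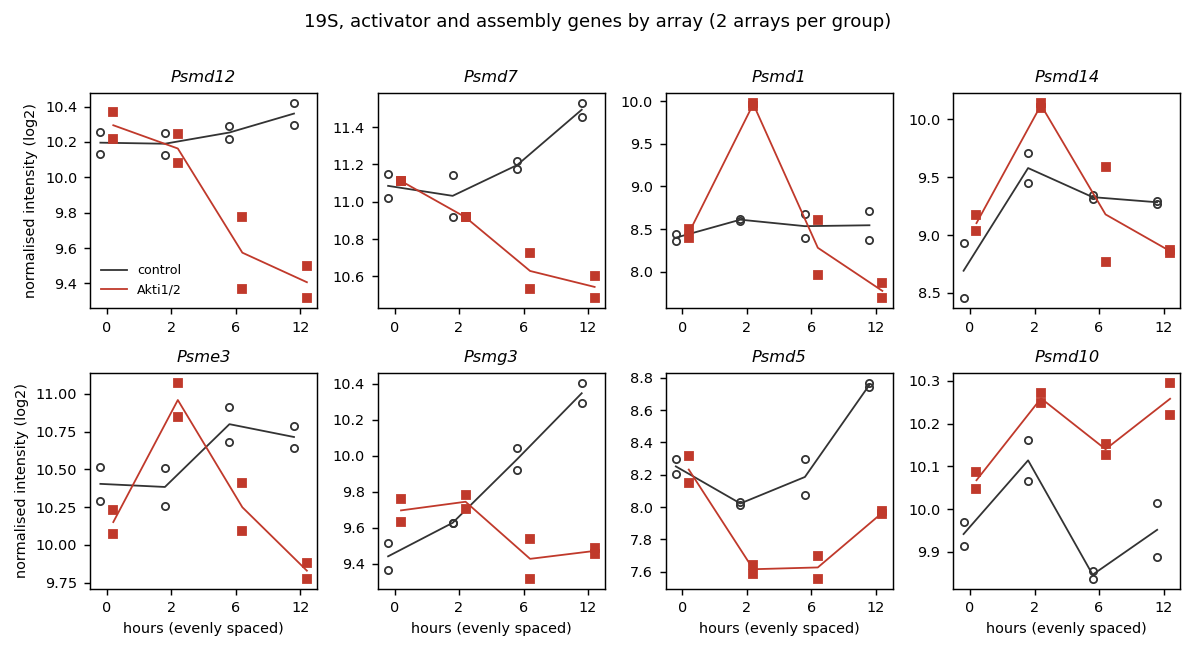
Normalised intensity (log2, vertical axis) of the 19S genes Psmd12, Psmd7, Psmd1, Psmd14, Psmd5 and Psmd10, the activator Psme3 and the assembly factor Psmg3 by hours of stimulation (times evenly spaced), each panel on its own scale. Open circles are control arrays, filled squares Akti1/2 arrays and lines join the means of 2 arrays; both Psmd1 arrays with Akti1/2 lie above every control array at 2 h, and Psmd10 is the one panel in which the Akti1/2 arrays lie above the control arrays at 12 h.

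More members were called at the later times, as were more of all genes. The members' shares were 12.5% at 2 h, 27.5% at 6 h and 60% at 12 h, against 28.4%, 37.5% and 49% of all genes. Members were mostly well above background, while the genes tested include dimmer ones. With only genes above background on all arrays, 35.1%, 44% and 56.3% of all genes were called. Of the 38 members among them, 8, 11 and 24 were called. At 12 h, 23 of these members were lower, where 29.3% of all such genes were. At 2 h, 2 members were higher (Psmd1 and Psme3) and 3 lower (Psmb10, Psmd5 and Psmc4) with Akti1/2, where 28.4% of all genes were called (13.6% higher, 14.9% lower). With arrays scaled to the same mean, 2 were higher and 8 lower, and after quantile normalisation without background correction 4 were higher and 8 lower. At 6 h, 1 was higher (Psmd10) and 10 were lower, where 37.5% of all genes were called (18.8% higher, 18.7% lower). All 10 of those members were lower at 12 h too (Psma2, Psmb8, Psmb10, Psmc1, Psmd5, Psmd7, Psmd12, Psme2, Psme3 and Psmg3), and 13 were lower at 12 h alone. Psmb10 and Psmd5 were lower at all 3 times. Besides the 6 h losses named above, the call of Psma2 at 6 h (-0.43, adjusted p = 0.0172) was lost without control replicate 1 or Akti1/2 replicate 1 (highest adjusted p 0.111). It was lost in a fit of the 6 h groups alone as well.

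In control cells, stimulation changed few proteasome genes, most of them upward. At 2 h Psmd14 and Psmd11 rose, 2 of 40 members, where 10.3% of all genes were called (4.42% up, 5.86% down). At 6 h 4 rose (Psmd14, Psmg3, Psmd11 and Psmc3ip, by 0.64, 0.54, 0.47 and 0.34) and Psme4 fell by 0.48, where 27.5% of all genes were called (12.1% up, 15.4% down); with arrays scaled to the same mean, 2 rose and 2 fell. At 12 h 7 rose and none fell, where 27.8% of all genes were called (12.7% up, 15.1% down): Psmc3ip and Psmg3 by 0.91 each, Psmb10 by 0.78, Psmd5 by 0.51, Psmd11 by 0.43, and Psmd7 and Psme1 by 0.41 each. The members' median was 0.17 at 12 h, against -0.01 over all genes. Leaving out 1 array left 1 or 2 calls at 6 h, the lowest without control replicate 1 at 6 h, and 5 to 7 at 12 h. The fall of Psme4 was lost when any 1 of its 4 arrays was left out (highest adjusted p 0.105), as was the rise of Psmc3ip at 6 h (0.233 over all settings). The Psmd14 rise at 6 h was lost without control replicate 1 at 0 h or either 6 h array (0.326 over all settings), the Psmd11 rise at 6 h without replicate 2 at 0 h or replicate 1 at 6 h (0.104) and at 12 h without replicate 2 at 0 h or replicate 1 at 12 h (0.138), and that of Psme1 at 12 h without replicate 1 at 0 h or either 12 h array (0.118). Scaling to the same mean also removed these rises of Psmd14 and Psmd11. Dropping the filter removed that of Psmd14 at 6 h, and a fit of the groups compared alone that of Psmd11 at 6 h. From 6 to 12 h, 6 members rose (Psmb10, Psmd5, Psmc3ip, Psmb8, Psme4 and Psmg3, by 0.61 to 0.37), where 13.6% of all genes were called (6.95% up, 6.64% down), and leaving out any 1 of the 4 arrays left 2 calls, with no gene called in all 4 cases. With the chip as a block, the rises of Psmb8 and Psmg3 from 6 to 12 h were not called (limma adjusted p = 0.0601 and 0.0563).

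With Akti1/2 present, members were called in both directions at 2 h and as falls alone at 6 and 12 h. At 2 h 5 members rose (Psmd1 by 1.51, Psmd14 by 1.02, Psme3 by 0.81, Psmd11 by 0.62 and Psmb5 by 0.54) and 4 fell (Psmd5 by 0.62, Psmb8 by 0.58, Psmb10 by 0.56 and Psmc4 by 0.49), where 38.6% of all genes were called (17.8% up, 20.9% down). With arrays scaled to the same mean, 5 rose and 9 fell, and after quantile normalisation 7 rose and 10 fell. The fall of Psmc4 was lost without Akti1/2 replicate 2 at 2 h (adjusted p = 0.0626). At 6 h 7 fell and none rose, where 33.3% of all genes were called (15.4% up, 17.9% down), led by Psmb8 (by 0.97), Psmd12 (by 0.72) and Psmb10 (by 0.68). At 12 h 13 fell and none rose, where 44.5% of all genes were called (21.1% up, 23.4% down), led by Psmd12 (by 0.89), Psmb8 (by 0.88) and Psmd1 (by 0.68). Of these 13, 8 were 20S genes and 5 were 19S genes, and no activator or assembly gene was called. Without Akti1/2 replicate 1 at 0 h, 8 members were called at 12 h. The 12 h falls lost by leaving out 1 array were those of Psma2, Psmb3, Psmb5, Psmb7, Psmd1 and Psmd13 (highest adjusted p over all settings 0.0612 to 0.204), and the 6 h falls so lost were those of Psmc1 and Psme4 (0.0937 and 0.203). From 6 to 12 h Psme4, Psmb10 and Psmd5 rose (by 0.73, 0.63 and 0.34) and Psmc3, Psmb2, Psmb7 and Psmc2 fell (by 0.43 to 0.32), where 17.8% of all genes were called (8.91% up, 8.84% down), and 2 were called without Akti1/2 replicate 1 at 12 h. With the chip as a block, the changes of Psmc2 and Psmd5 were not called (limma adjusted p = 0.0511 and 0.056).

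**Figure D4:**
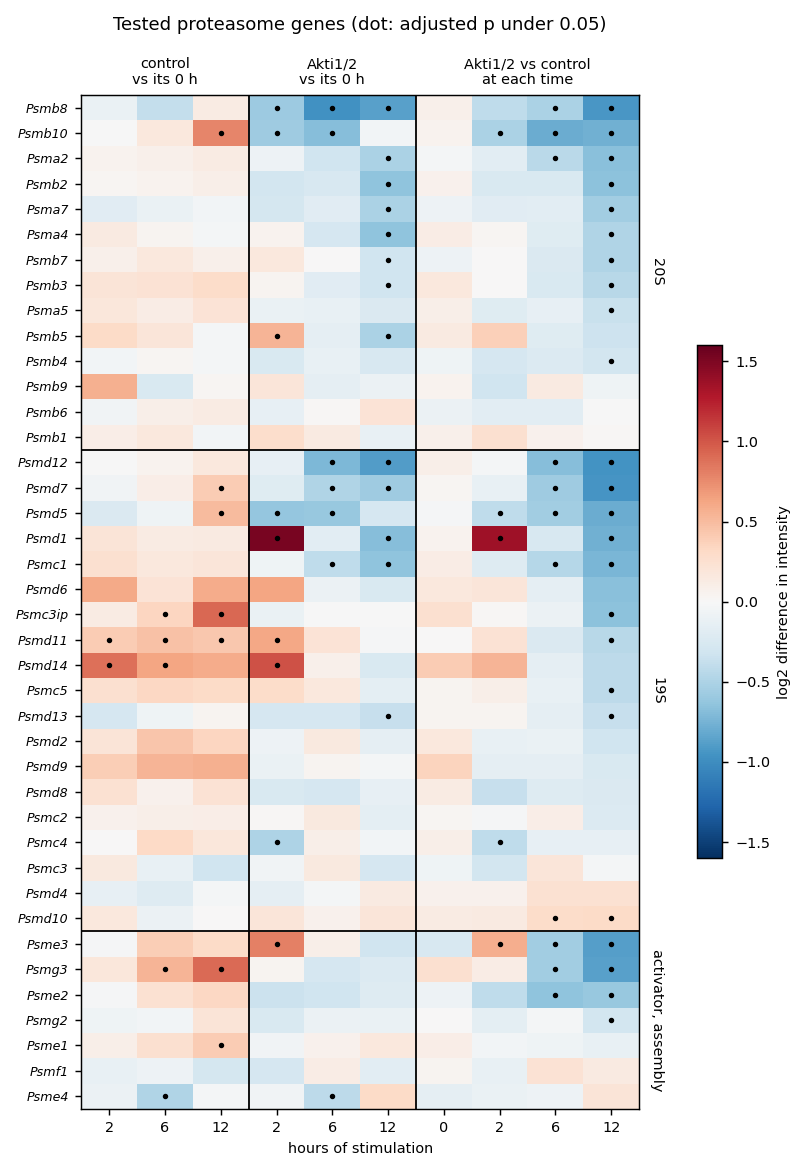
Log2 difference in intensity (colour scale, blue lower and red higher) for the 40 tested members, one per line, grouped as 20S, 19S and activator or assembly genes and sorted within each by the 12 h difference between conditions. Columns give control cells and Akti1/2 cells at 2, 6 and 12 h against their own 0 h and Akti1/2 against control at each time, and dots mark calls (limma, adjusted p under 0.05); the last column holds 24 dots, 23 of them on blue cells.

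The response itself was compared between conditions by the interaction, that is, the log2 change over stimulation under Akti1/2 less the same change without it. At 2 h it was called for 2 members, Psmd1 (1.30 ± 0.26, SE, limma adjusted p = 0.0131) and Psme3 (0.83 ± 0.21, adjusted p = 0.0329), both higher, where 8.41% of all genes were called (4.25% higher, 4.16% lower); scaling to the same mean gave 2 higher and 1 lower, and quantile normalisation 2 of each. Psmd1 was not called without control replicate 1 at 0 h (adjusted p = 0.0537), and Psme3 was not called when any 1 of 6 of the 8 arrays was left out (highest adjusted p 0.118). At 6 h 6 members were called, all lower (Psmb10, Psmg3, Psmd12, Psmd7, Psmc1 and Psmd5, from -0.85 to -0.54), where 19.5% of all genes were called (10.3% higher, 9.24% lower), and 2 of them, Psmb10 and Psmg3, were called in every setting. At 12 h 18 members were called, all lower, where 16.2% of all genes were lower and 16.3% higher, 32.5% in all. The largest were Psmg3 (-1.13 ± 0.16, adjusted p = 0.000236), Psmd12 (-1.05 ± 0.20, adjusted p = 0.00167), Psmb8 (-1.01 ± 0.23, adjusted p = 0.00482) and Psmd7 (-0.97 ± 0.16, adjusted p = 0.000642). The members' median was -0.48, against -0.02 over all genes.

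Set against their own 0 h level, 11 of the 18 members fell with Akti1/2, 6 rose in control cells, 1 (Psmd7) did both, and 2 were called in neither. Psmg3, Psmc3ip, Psmb10, Psmd5 and Psmd11 rose in control cells without a called fall with Akti1/2, while Psmd12, Psmb8, Psmd1, Psmc1, Psmb2, Psma2, Psma4, Psma7, Psmb3 and Psmb7 fell with Akti1/2 without a called rise in control cells. These comparisons share arrays, and the values are set side by side for that reason. Leaving out 1 of the 8 arrays concerned left 11 to 14 calls at 12 h, the fewest without Akti1/2 replicate 1 at 0 h, and 2 to 7 calls at 6 h, the fewest without control replicate 2 at 6 h. The interaction of Psma5 at 12 h was not called with the chip as a block (limma adjusted p = 0.0504). The calls that held in every setting at 12 h were 9 of the 18: Psmg3, Psmd12, Psmb8, Psmd7, Psmb10, Psmd5, Psmc1, Psmb2 and Psmc3ip.

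Genes that work with the proteasome but lie outside the symbol pattern were taken from lists of partners and regulators, of ubiquitin and unfoldase genes, and of MHC class I antigen processing. The calls of these listed genes come from the main fit alone. Unlike those of the members, they were not checked under the alternative settings or with single arrays left out. Of 14 tested partners and regulators, 3 were higher and 4 lower with Akti1/2 at 12 h, beside 24.2% higher and 24.8% lower of all genes. Nfe2l1, a transcription factor known to drive proteasome genes when proteasome activity is short, read 9.55 and 9.49 in unstimulated control cells and 9.88 and 9.76 after 12 h. With the inhibitor the values were 9.49 and 9.50 unstimulated, 10.58 and 10.07 after 2 h, 11.31 and 11.06 after 6 h, and 11.57 and 11.48 after 12 h. It was higher than in control cells at every time after 0 h, by 0.85, 1.51 and 1.70. Nfe2l2, a related factor of the oxidative stress response, was higher at 12 h by 1.22, and Zfand2a, an arsenite-inducible proteasome adaptor, by 0.47. Pomp, the maturation chaperone of the core, was lower at 2, 6 and 12 h by 0.39, 0.44 and 0.75, reading 12.69 and 12.77 on the control arrays, and 11.94 and 12.01 on those with Akti1/2, at 12 h.

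The shuttle factor Rad23b, which carries ubiquitinated proteins to the 19S particle, was 1.57 higher with Akti1/2 at 2 h, where it read 10.37 and 10.69 against 8.84 and 9.07 in control cells, and it was not called at 6 or 12 h. Uchl5, a deubiquitinase of the 19S particle, was higher by 0.71 at 2 h and lower by 0.67 at 12 h. The other partners lower at 12 h were Ubqln4 (-0.70) and Ubqln1 (-0.47). Of 7 ubiquitin and unfoldase genes tested, 3 were lower at 12 h and none was higher (49% of all genes were called then): Rps27a, which encodes ubiquitin fused to a ribosomal protein (-1.58), Ube1x, an older symbol of the ubiquitin-activating enzyme Uba1 (-0.70), and Nploc4 (-0.54). The row named Uba1 was not called (-0.15), and neither was the polyubiquitin gene Ubb (0.09).

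Of 8 tested genes of MHC class I antigen processing, 1 was higher and 2 were lower with Akti1/2 at 12 h, again beside 49% of all genes called. The interferon regulatory factor Irf1, an activator of immunoproteasome genes, was higher by 1.06, while Psmb8 and Psmb10 were lower. The peptide-loading genes Tapbp and Calr were lower by 0.57 and 0.65. Tap2, the neighbour of Psmb8, was lower by 1.52 at 2 h and by 0.50 at 6 h and read 9.76 and 9.57 with Akti1/2 beside 9.73 and 9.60 without it at 12 h, while Tap1 was not called between conditions at any time.

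**Figure D5:**
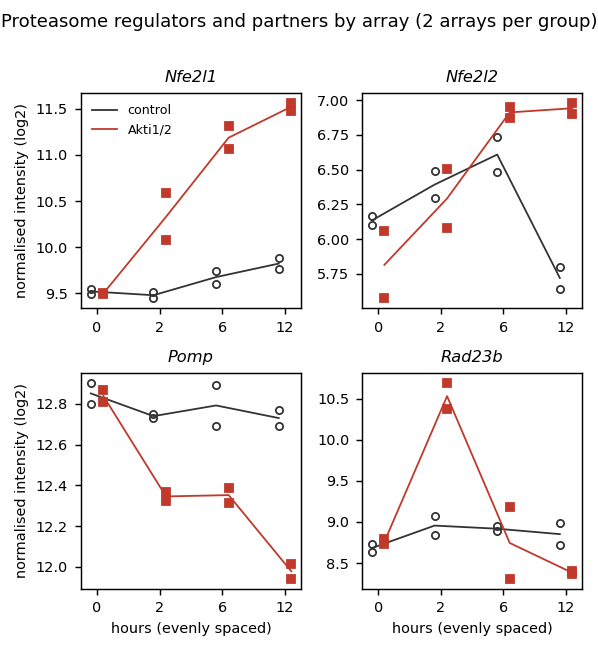
Normalised intensity (log2, vertical axis) of the transcription factors Nfe2l1 and Nfe2l2, the core maturation chaperone Pomp and the shuttle factor Rad23b by hours of stimulation (times evenly spaced), each panel on its own scale. Open circles are control arrays, filled squares Akti1/2 arrays and lines join the means of 2 arrays; Nfe2l1 climbs with Akti1/2 at every time, Pomp declines, and Rad23b peaks at 2 h.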

How the data were processed

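RNA of D10 T cells was hybridised to Illumina MouseRefSeq8 arrays, 16 in all, on 2 chips. The deposited table holds linear bead intensities, which the authors' scanner software summarised per gene and array without background subtraction or normalisation. A second deposited table of control beads covered 15 of the 16 arrays and was not used. Between arrays, mean intensity ran from 393.8 to 544 and 6288 to 6907 genes were above background, and precision is limited by having 2 arrays per group. The 2 dimmest arrays were those of Akti1/2 at 2 h (414.2 and 393.8), against 528.8 and 467.1 for control cells at 2 h. The part of this in the differences at 2 h was not tested. Detection p was the share of the 798 negative controls at or above a gene's intensity. Intensities were background-corrected against the negative controls, quantile-normalised and log2-transformed with an offset of 16 (neqc), and 1 model of the 8 groups was fitted with lmFit and eBayes (limma 3.58.1, R 4.3.3, 8 residual degrees of freedom) for 15 comparisons, 4 between conditions, 8 over time and 3 interactions, with Benjamini-Hochberg adjustment over 7395 genes. The method was run on simulated data with independent noise and changes planted in 1 group alone. That setting differs from these data, in which many genes were called between groups, so it is no support for the counts here. The members, the gene lists and the tests were chosen with earlier results of these data known, so no count here is independent support. Named were the catalytic, activator and assembly genes, up to 3 called members with the largest rise and 3 with the largest fall in each comparison that moved the same way on both chips, and members not well above background; the promoters shown, and other members mentioned, were picked after their values were seen. Same-numbered arrays did not deviate together (correlations of deviations between groups from -0.296 to 0.264, median 0.017, 28 pairs of groups), so replicate numbers were not used as pairs. Alternatives were scaling arrays to 1 mean, quantile normalisation with no background correction, dropping the filter, a filter on all arrays, replicate and chip blocks, a fit of only the groups compared, and leaving out each array. Some genes of the marker and partner lists are not reported here and are in none of the lists' counts. Promoter sequences are from RefSeq (GRCm38.p6).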

Additional observations from a re-analysis of the deposited data

Results flagged for a closer look

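The interaction was called for 2 members at 2 h, 6 at 6 h and 18 at 12 h; each gene is given because the change from 0 h with Akti1/2 differed from the change from 0 h in control cells (limma, adjusted p under 0.05). At 2 h these were Psmd1 (1.30) and Psme3 (0.83). At 6 h they were Psmb10 (-0.85), Psmg3 (-0.81), Psmd12 (-0.78), Psmd7 (-0.59), Psmc1 (-0.58) and Psmd5 (-0.54). At 12 h the 20S genes were Psmb8 (-1.01), Psmb10 (-0.83), Psmb2 (-0.73), Psma2 (-0.64), Psmb3 (-0.61), Psma4 (-0.60), Psma7 (-0.47), Psma5 (-0.45) and Psmb7 (-0.41). The 19S-named genes were Psmd12 (-1.05), Psmd7 (-0.97), Psmc3ip (-0.92), Psmc1 (-0.85), Psmd1 (-0.82), Psmd5 (-0.77) and Psmd11 (-0.45). The activator Psme3 (-0.63) and the assembly factor Psmg3 (-1.13) completed the set. In the main fit, Psmd1 and Psme3 thus had a higher response at 2 h and a lower one at 12 h. Not all of these calls were stable. The 12 h interactions of Psmd1 and Psme3 were each lost in 8 of 15 settings (highest limma adjusted p 0.117 and 0.137). At 2 h the interaction of Psme3 was lost in 8 of 15 settings and that of Psmd1 in 1.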

How the results depend on the processing

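Of 122 calls of members over 15 comparisons, 55 held in every alternative setting run for their comparison (11, or 15 for an interaction) and none changed direction in any. The counts that moved by over 1.5 times were these. Quantile normalisation without background correction gave 10 calls in control cells at 6 h, 17 and 11 with Akti1/2 at 2 and 6 h, 12 between conditions at 2 h and 4 for the interaction at 2 h. Scaling to the same mean gave 1 in control cells at 2 h, 14 with Akti1/2 at 2 h, 10 between conditions at 2 h and 4 with Akti1/2 from 6 to 12 h. Without a filter there were 1 and 3 in control cells at 2 and 6 h, 1 for the interaction at 2 h, and 3 (control) and 4 (Akti1/2) from 6 to 12 h. With the filter on all arrays, 8 were called between conditions at 2 h. A fit of only the groups compared gave 0 in control cells at 2 h, 4 with Akti1/2 at 6 h, 2 and 6 between conditions at 2 and 6 h, 1 for the interaction at 2 h, and 3 (control) and 0 (Akti1/2) from 6 to 12 h. Leaving out each array gave 0 to 2 in control cells at 2 h, 1 to 2 at 6 h and 5 to 7 at 12 h. With Akti1/2 it gave 8 at 2 h, 5 to 11 at 6 h and 8 to 10 at 12 h. Between conditions it gave 0 at 0 h, 2 to 4 at 2 h, 8 to 12 at 6 h and 19 to 20 at 12 h. For the interaction it gave 0 to 2, 2 to 7 and 11 to 14, and from 6 to 12 h 2 (control) and 2 to 7 (Akti1/2). The cause of these shifts was not tested. A replicate block gave 24 calls between conditions and 19 for the interaction at 12 h, and moved no count by over 1.5 times; it removed 5 calls, Psmc3ip in control cells at 6 h and, from 6 to 12 h, Psmb8 and Psmg3 in control cells and Psmc2 and Psmd5 with Akti1/2 (limma adjusted p 0.0513 to 0.0598). Scaling to the same mean shifted the median of all genes by up to 0.127, for the interaction at 6 h, where 71.9% of all calls were higher against 52.7% otherwise; there the members' median was -0.27, or -0.39 relative to all genes, and 5 were called, all lower. The split of all calls also moved by over 10 points in control cells at 2 h (25.9% higher against 43%) and 6 h (30.6% against 44%), between conditions at 6 h (60.8% against 50.1%) and for the interactions at 2 h (64.7% against 50.5%) and 12 h (60.6% against 50.2%, median shift 0.102). With 2 arrays per group, small differences may have gone uncalled, and the 4 members whose probes were at background were not tested.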
